A study of Mus musculus with 12 samples.

Results

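The genes of the inflammasome and of interleukin-1 were followed in preosteoclasts, 10 genes of the 57010 listed in the count data. They were chosen by gene symbol as the sensors Nlrp3 and Aim2, the adaptor Pycard, the inflammatory caspases Casp1 and Casp4, the pore protein Gsdmd, the cytokines Il1b, Il1a and Il18, and the receptor antagonist Il1rn. The choice was made with earlier results of these data known. Each symbol matched 1 listed gene, and all 10 genes passed the low-count filter that left 15425 genes for testing.

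The libraries came from bone marrow of female mice that were LSD1WT, or LSD1cKO with a deletion of LSD1 (the histone demethylase gene Kdm1a) by LysM-Cre, which is active in myeloid cells. Marrow was taken from the mandible and femur of mice that carried silk ligatures on the second molars of both sides of the upper jaw for 7 days, which induces periodontitis, and from the femur of mice with no ligature, and was grown for 2 days with M-CSF and RANKL, the cytokines that drive osteoclast formation. The 6 conditions hold 2 libraries each from 9 mice in all, and 1 LSD1WT and 2 LSD1cKO mice, all ligated, were sampled at both sites. The sources give an age of 2 months at ligature placement and 3 months for the sequenced marrow, the Cre status of the LSD1WT mice is not given in the sources used here, and 1 mandible LSD1WT library (replicate 3) has a library name that reads femur. The labels give the 2 libraries of a condition to different mice.

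An inflammasome is a protein platform that assembles in myeloid cells when a sensor meets a danger signal. The sensor binds the adaptor ASC, the product of Pycard, which gathers and activates caspase-1. Active caspase-1 cuts the precursors of interleukin-1β and interleukin-18 into their secreted forms and cuts gasdermin D, whose fragment opens pores in the plasma membrane. Interleukin-1β is known as a driver of osteoclast formation and bone loss in periodontitis, and the antagonist encoded by Il1rn occupies the interleukin-1 receptor without signalling. The counts measure transcripts only and say nothing of cleavage or secretion.

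Total counts ran from 21375805 to 32526751 per library, and levels are given as CPM, counts scaled to library size. Kdm1a was at 61.2 to 71.3 CPM in the 6 LSD1WT libraries and at 15.6 to 24.3 CPM in the 6 LSD1cKO libraries. The second femur libraries of LSD1WT, ligated and unligated, stood apart from the rest. Their 12 osteoclast markers summed to 318 and 390 CPM against 12142 to 42047 CPM in the other 10 libraries, and their 10 macrophage markers summed to 14126 and 11005 CPM against 1631 to 4714 CPM. The labelled cell type therefore lacked most of its marker level in these 2 libraries, which came from different mice, and the genotype results on the 10 genes are given with and without them. Markers of T and NK cells and of erythroid cells stayed under 1 CPM in sum in every library. In bulk RNA, fewer cells of a type and less RNA per cell cannot be told apart.

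The promoters of 6 of the genes are printed here, since Casp1 and Il1rn separated the genotypes in every culture, Nlrp3 changed direction in the femur with the libraries compared, and Pycard, Casp4 and Aim2 held a searched motif. Each sequence is the 250 bases before the RefSeq start that lies farthest upstream, in build GRCm38.p6, read in the direction of transcription. Capitals mark a match on either strand to GGGNNTTTC (NF-kappaB) or GAGGAAGT (PU.1), and no listed window of the genes matched GAAANNGAA, the core of the interferon-stimulated response element.
Nlrp3 (chr11:59541319-59541568, + strand): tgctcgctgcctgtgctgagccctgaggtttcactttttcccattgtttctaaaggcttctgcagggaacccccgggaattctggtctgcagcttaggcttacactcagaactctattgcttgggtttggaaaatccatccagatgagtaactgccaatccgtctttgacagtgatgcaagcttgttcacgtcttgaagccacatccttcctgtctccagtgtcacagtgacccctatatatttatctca
Aim2 (chr1:173420354-173420603, + strand): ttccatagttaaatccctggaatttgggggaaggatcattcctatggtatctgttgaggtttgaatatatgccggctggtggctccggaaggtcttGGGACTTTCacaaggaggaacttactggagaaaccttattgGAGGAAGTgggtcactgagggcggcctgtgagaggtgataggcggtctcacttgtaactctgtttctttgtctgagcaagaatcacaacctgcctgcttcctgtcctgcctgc
Pycard (chr7:127993868-127994117, - strand): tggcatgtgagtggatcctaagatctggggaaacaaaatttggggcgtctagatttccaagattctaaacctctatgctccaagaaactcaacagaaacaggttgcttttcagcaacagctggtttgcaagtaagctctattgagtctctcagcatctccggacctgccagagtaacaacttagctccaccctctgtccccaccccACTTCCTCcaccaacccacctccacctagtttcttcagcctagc
Casp1 (chr9:5298267-5298516, + strand): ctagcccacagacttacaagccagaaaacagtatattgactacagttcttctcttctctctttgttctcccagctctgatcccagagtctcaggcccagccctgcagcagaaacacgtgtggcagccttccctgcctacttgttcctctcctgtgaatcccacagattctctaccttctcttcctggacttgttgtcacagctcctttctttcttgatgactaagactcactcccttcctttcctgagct
Casp4 (chr9:5308599-5308848, + strand): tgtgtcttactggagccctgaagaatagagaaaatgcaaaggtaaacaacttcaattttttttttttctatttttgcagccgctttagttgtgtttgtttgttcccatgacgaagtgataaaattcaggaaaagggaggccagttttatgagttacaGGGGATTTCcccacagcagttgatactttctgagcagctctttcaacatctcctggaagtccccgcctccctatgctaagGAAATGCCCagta
Il1rn (chr2:24336610-24336859, + strand): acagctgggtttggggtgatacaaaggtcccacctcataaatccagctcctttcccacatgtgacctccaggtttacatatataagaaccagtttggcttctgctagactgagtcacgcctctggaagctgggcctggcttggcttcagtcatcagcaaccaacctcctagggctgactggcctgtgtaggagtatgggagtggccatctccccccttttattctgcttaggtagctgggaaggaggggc

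RefSeq listed 13 promoter windows for 9 of the 10 genes, the other gene being Gsdmd. The NF-kappaB letters occurred in Casp4, 93 and 13 bases before the start, in Aim2, 154 bases before it, and in Il1rn, 51 bases before its most downstream start, a window not printed. The PU.1 letters occurred in Aim2, 113 bases before the start, and in Pycard, 44 bases before it on the opposite strand. The 2 motifs do not overlap each other in these windows. Of 32851 promoter windows of the same length, 3.72% held the NF-kappaB letters, 2.44% the PU.1 letters and 7.13% the interferon letters. A match is a run of letters and not a measured binding site.

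Nlrp3, the sensor of many danger signals, was low in LSD1WT mandible cultures and higher in LSD1cKO, but the second femur LSD1WT libraries were the highest of all. Mandible libraries had 7.02 and 6.20 CPM for LSD1WT and 21.2 and 32.0 CPM for LSD1cKO. Ligated femur libraries were at 19.5 and 176 CPM for LSD1WT, against 53.9 and 53.5 CPM for LSD1cKO. The LSD1WT pair thus spanned the LSD1cKO pair in the ligated femur. Without ligature Nlrp3 in the femur was at 13.7 and 127 CPM for LSD1WT and at 35.8 and 38.0 CPM for LSD1cKO, again with the LSD1cKO libraries between those of LSD1WT. The log2 fold change of LSD1cKO over LSD1WT was 2.01 ± 1.08 (SE) for the mandible, and -0.86 ± 1.03 with and -0.93 ± 1.04 without ligature for the femur, with edgeR adjusted p-values of 1, 0.895 and 1. Without the second femur LSD1WT libraries these values were 2.02, 1.54 and 1.45, with adjusted p-values of 0.00242, 0.0122 and 0.0341 by edgeR.

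Aim2, the sensor of cytosolic DNA, varied least of the 10 genes by the ratio of the highest to the lowest library, from 34.4 to 71.5 CPM. It was at 34.4 and 36.0 CPM in LSD1WT mandible and at 50.5 and 50.7 CPM in LSD1cKO mandible. The femur of ligated mice gave 35.1 and 58.9 CPM with LSD1 present and 61.6 and 63.3 CPM with LSD1 deleted. The genotypes did not overlap in either of these cultures, but they did in the unligated femur, with LSD1WT at 39.1 and 49.3 CPM and LSD1cKO at 39.5 and 71.5 CPM. Over all cultures the log2 fold change was 0.42 ± 0.17 (SE; edgeR adjusted p = 0.239), and without the second femur LSD1WT libraries it was 0.64 (adjusted p = 0.0120).

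Pycard, which encodes the adaptor ASC, was at 32.8 and 32.99 CPM in LSD1WT mandible and at 58.6 and 60.8 CPM in LSD1cKO mandible. With ligature, the LSD1WT femur pair was at 36.6 and 114 CPM and the LSD1cKO femur pair at 75.5 and 98.9 CPM. Unligated femur libraries were at 50.1 and 98.7 CPM for LSD1WT, against 51.7 and 103 CPM for LSD1cKO. The mandible pairs were apart, and both femur pairs overlapped through the second LSD1WT library. Over all cultures its log2 fold change was 0.38 ± 0.30 (SE; edgeR adjusted p = 0.609), or 0.93 (adjusted p = 0.00580) without the 2 second femur LSD1WT libraries. An annotated gene, Gm45205, shares exon bases with Pycard on the opposite strand, and whether the counting used strand is not given in the sources used here.

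Casp1, the protease that matures interleukin-1β and interleukin-18, was higher in every LSD1cKO library than in the LSD1WT libraries of the same culture. It was at 37.3 and 38.6 CPM in LSD1WT mandible and at 65.8 and 72.9 CPM in LSD1cKO mandible. The femur of ligated mice gave 64.2 and 111 CPM with LSD1 present and 155 and 192 CPM with LSD1 deleted. Without ligature, the LSD1WT femur pair was at 79.3 and 91.8 CPM and the LSD1cKO femur pair at 98.3 and 163 CPM. The groups did not overlap in any of the 3 cultures, and the gap was smallest in the unligated femur. Over all cultures Casp1 rose 1.77-fold in LSD1cKO (log2 fold change 0.82 ± 0.17 SE, edgeR adjusted p = 0.0253). It was the only 1 of the 10 genes to pass the threshold of 0.05 over all cultures, against 3.53% of all genes tested and 3% called higher. The call was lost, with adjusted p-values of 0.0565 to 0.0753, without mandible LSD1WT replicate 1 or 3, mandible LSD1cKO replicate 2, ligated femur LSD1cKO replicate 1 or 2, or unligated femur LSD1cKO replicate 2, each left out in turn, while the log2 fold change stayed between 0.75 and 0.96 with any 1 library left out. It was also lost with mandible LSD1WT replicate 3 taken as femur (adjusted p = 0.0941), with the mandible LSD1WT libraries summed (adjusted p = 0.0737) and by limma's voom (adjusted p = 0.0732), while without the second femur LSD1WT libraries the log2 fold change was 1.01 (adjusted p = 0.00212).

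Casp4, which encodes caspase-11, the sensor of cytosolic lipopolysaccharide, differed little by genotype in the mandible, with LSD1WT at 37.4 and 35.4 CPM and LSD1cKO at 38.7 and 37.8 CPM, a log2 fold change of 0.07 ± 0.67 (SE; edgeR adjusted p = 1). Ligated femur libraries were at 47.9 and 29.5 CPM for LSD1WT, against 70.2 and 85.4 CPM for LSD1cKO. The femur of unligated mice gave 56.3 and 9.15 CPM with LSD1 present and 44.7 and 79.5 CPM with LSD1 deleted. The value of 9.15 CPM, in a second femur LSD1WT library, was the lowest of the 12. Over all cultures its log2 fold change was 0.67 ± 0.38 (SE; adjusted p = 0.436) and was 0.30 (adjusted p = 0.244) without the second femur LSD1WT libraries, so that Casp4 was not called either way.

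Gsdmd, the substrate whose fragment forms the membrane pore, had the highest median CPM of the 10 genes, and it also separated the genotypes in every culture. It was at 180 and 182 CPM in LSD1WT mandible and at 237 and 263 CPM in LSD1cKO mandible. With ligature, the LSD1WT femur pair was at 235 and 80.7 CPM and the LSD1cKO femur pair at 391 and 398 CPM. Unligated femur libraries were at 268 and 62.8 CPM for LSD1WT, against 342 and 352 CPM for LSD1cKO. In contrast to Nlrp3, the second femur LSD1WT libraries were the lowest for Gsdmd, so leaving them out made the difference smaller and its spread narrower. Pooled over cultures, the log2 fold change was 0.95 ± 0.35 (SE; edgeR adjusted p = 0.200) with all libraries and 0.55 ± 0.10 (adjusted p = 0.00272) without these 2.

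**Figure D1:**
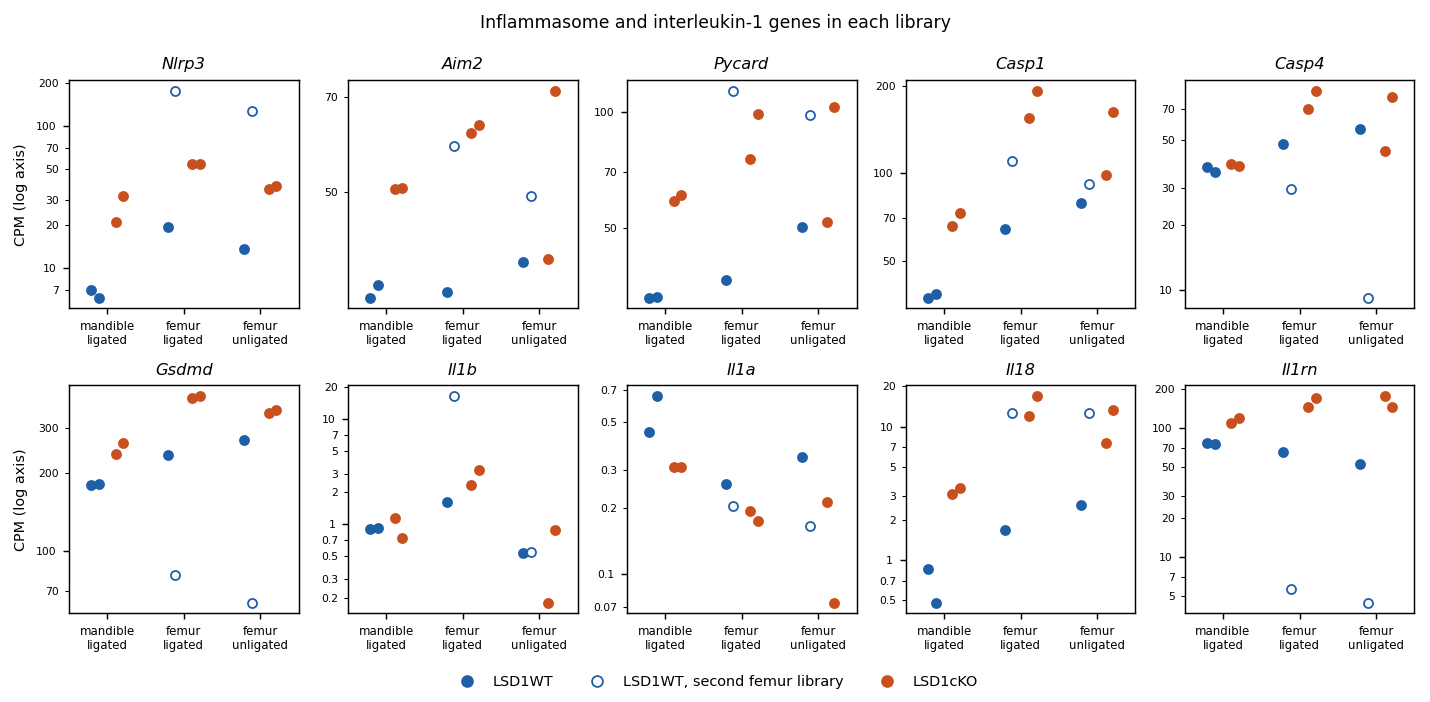
The CPM of each gene (log axis, 1 panel per gene) is plotted for the 12 libraries by culture, with LSD1WT in blue, LSD1cKO in orange and open blue circles for the second femur LSD1WT libraries. For Casp1, Gsdmd and Il1rn both orange points lie above both blue points in every culture, whereas the open circles are the highest points for Nlrp3 (176 and 127 CPM) and the lowest for Il1rn (5.64 and 4.43 CPM).

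The interleukin-1 agonists were low in most libraries. Il1a, which encodes the membrane-associated and alarmin form, had 2 to 18 counts in every library, or 0.07 to 0.66 CPM, and 3 counts correspond to 0.09 to 0.15 CPM at these depths. In the mandible it had 11 and 18 counts in LSD1WT and 9 and 10 counts in LSD1cKO. In the ligated femur it had 8 and 4 counts in LSD1WT and 5 and 4 counts in LSD1cKO, too few to tell the genotypes apart at this depth. The edgeR log2 fold change over all cultures was -0.68 ± 0.32 (SE; adjusted p = 0.342), or -0.81 (adjusted p = 0.122) without the second femur LSD1WT libraries. Gm14023 shares exon bases with Il1a on the opposite strand.

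Il1b, which encodes the main secreted agonist, was at 0.90 and 0.92 CPM in LSD1WT mandible and at 1.13 and 0.74 CPM in LSD1cKO mandible, so the genotypes overlapped there. The femur of ligated mice gave 1.62 and 16.5 CPM with LSD1 present and 2.33 and 3.24 CPM with LSD1 deleted. Unligated femur pairs were at 0.53 and 0.54 CPM for LSD1WT and 0.18 and 0.88 CPM for LSD1cKO, from 5 to 24 counts. The value of 16.5 CPM, from 322 counts in the second ligated femur LSD1WT library, was well above the next highest value of 3.24 CPM, and the unligated second library, which had as few osteoclast markers, was at 0.54 CPM. Pooled over cultures, its log2 fold change was -0.61 ± 0.59 (SE; edgeR adjusted p = 0.688) and changed sign to 0.31 (adjusted p = 0.595) without the second femur LSD1WT libraries. The antisense gene Il1bos shares exon bases with Il1b, and without strand their reads cannot be told apart.

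Il18, the other cytokine that caspase-1 matures, was at 0.86 and 0.48 CPM in LSD1WT mandible, from 21 and 13 counts, and at 3.13 and 3.49 CPM in LSD1cKO mandible, from 91 and 113 counts. Ligated femur libraries were at 1.68 and 12.7 CPM for LSD1WT, against 12.01 and 17.0 CPM for LSD1cKO. Without ligature, the LSD1WT femur pair was at 2.60 and 12.5 CPM and the LSD1cKO femur pair at 7.48 and 13.3 CPM. The genotypes were apart in the mandible, and in both femur cultures the second LSD1WT library lay within the LSD1cKO range. The mandible log2 fold change was 2.31 ± 1.00 (SE; edgeR adjusted p = 1, unadjusted p = 0.0483), and without the second femur LSD1WT libraries it was 2.33 (adjusted p = 0.0190), and the femur gave 3.18 (adjusted p = 0.00955) with ligature and 2.02 (adjusted p = 0.0681) without.

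Il1rn, which encodes the receptor antagonist, was higher in LSD1cKO than in LSD1WT libraries of every culture. It was at 76.5 and 74.4 CPM in LSD1WT mandible and at 110 and 120 CPM in LSD1cKO mandible. With ligature, the LSD1WT femur pair was at 65.6 and 5.64 CPM and the LSD1cKO femur pair at 146 and 171 CPM. The femur of unligated mice gave 52.3 and 4.43 CPM with LSD1 present and 176 and 144 CPM with LSD1 deleted. No LSD1WT library exceeded any LSD1cKO library of any culture, since the highest LSD1WT value was 76.5 CPM and the lowest LSD1cKO value 110 CPM. The log2 fold change over all cultures was 1.76 ± 0.67 (SE; edgeR adjusted p = 0.212) and, without the second femur LSD1WT libraries, 1.11 ± 0.18 (adjusted p = 0.00148).

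**Figure D2:**
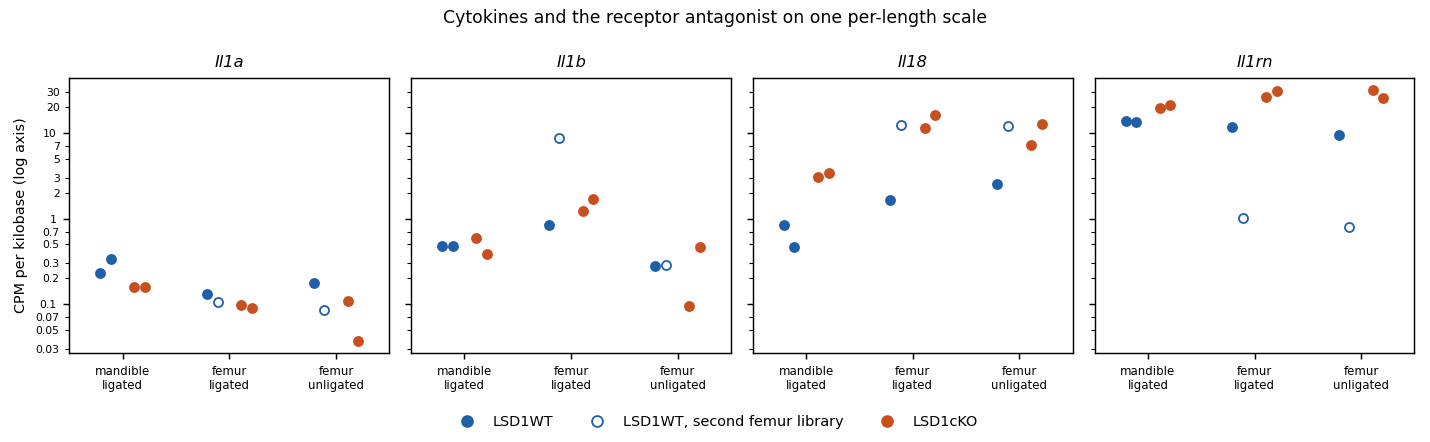
CPM per kilobase of annotated exon (log axis, the same in all panels) is plotted for Il1a, Il1b, Il18 and Il1rn in the 12 libraries by culture, with LSD1WT in blue, LSD1cKO in orange and the second femur LSD1WT libraries as open circles. Il1rn lies above Il1b in 11 of the 12 libraries, and the exception is the second ligated femur LSD1WT library, at 1.02 for Il1rn and 8.66 for Il1b.

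To compare levels between genes, CPM were divided by exon length, which ranged from 1.031 kb for Il18 to 5.535 kb for Il1rn in the GENCODE vM21 annotation. Gsdmd and Casp1 had the highest medians over the 12 libraries, at 105 and 57.2 CPM per kb. Il1rn (16.8), Pycard (15.7), Aim2 (14.3), Casp4 (11.2) and Nlrp3 (8.36) followed within overlapping ranges. Il18 was at 5.32 CPM per kb, Il1b at 0.476 and Il1a at 0.120. The level of Il1rn over that of Il1b, both per kb, was 14.0 to 33.7 in the 4 LSD1WT libraries other than the second femur ones and 18.1 to 341 in LSD1cKO, so the genotypes overlapped. The value of 341 came from unligated femur LSD1cKO replicate 1, where Il1b had 5 counts, and the next highest in LSD1cKO was 56.5. In the second femur LSD1WT libraries this ratio was 0.118 in the ligated and 2.84 in the unligated condition, the lowest of the 12.

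Over the 10 genes, more log2 fold changes of LSD1cKO over LSD1WT were above 0 than below it, and few passed a test with all 12 libraries. By edgeR, 0 of the 10 were called in the mandible, where 0% of the 15425 genes tested were called, 0 in the ligated femur (0.00648% of genes) and 0 in the unligated femur (0%). At an unadjusted p under 0.05 there were 2, 1 and 0 of the genes, all higher in LSD1cKO, against 3.81%, 3.91% and 3.61% of all genes that were higher at that p, and DESeq2 and limma voom also called 0 in each culture. The median log2 fold change of the 10 genes was 0.56, 0.70 and 0.39 in these cultures, against medians of 0, -0.12 and -0.05 over all genes tested. The femur medians rest on single libraries, since with ligature the median was 0.21 without LSD1WT replicate 1 and 1.12 without LSD1WT replicate 2, and without ligature it was -0.04 without LSD1cKO replicate 2 and 0.76 without LSD1cKO replicate 1. Over all cultures, 7 genes were higher and 3 lower in LSD1cKO, with a median of 0.55 against -0.06. Since the 10 genes were chosen with earlier results known, their medians and those of all genes are not an independent comparison.

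The groups were also compared by whether their libraries overlapped, and only genes higher in LSD1cKO were counted. Il1a was lower in LSD1cKO without overlap in the mandible and the ligated femur, from 4 to 18 counts a library. In the mandible, 8 of the 10 genes were higher in LSD1cKO with no overlap, all but Il1b and Il1a, against 34.1% of all genes tested. Among these 8, Casp4 was barely apart, at up to 37.4 CPM in LSD1WT and from 37.8 CPM in LSD1cKO. In the ligated femur 5 genes were higher without overlap (Casp1, Casp4, Gsdmd, Aim2 and Il1rn), against 14.8% of genes, and in the unligated femur 3 (Casp1, Gsdmd and Il1rn), against 9.82%. In the ligated femur there were 5 (Casp1, Casp4, Gsdmd, Aim2 and Il1rn), against 14.8% of genes, and in the unligated femur 3 (Casp1, Gsdmd and Il1rn), against 9.82%. These 3 genes were higher without overlap in all 3 cultures, as were 5.17% of all genes. The same count without the second femur LSD1WT libraries, with 1 LSD1WT library left in each femur condition, was 7 genes (Nlrp3, Pycard, Casp1, Gsdmd, Aim2, Il1rn and Il18), against 16.6% of genes.

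Leaving out the second femur LSD1WT libraries also changed the tests. Without them edgeR called 2 of the 10 genes in the mandible (Nlrp3 and Il18; 5.93% of all genes), 5 in the ligated femur (Nlrp3, Casp1, Gsdmd, Il1rn and Il18; 9.8%) and 2 in the unligated femur (Nlrp3 and Il1rn; 2.84%). Over all cultures it called 7, all higher in LSD1cKO (Nlrp3, Pycard, Casp1, Gsdmd, Aim2, Il1rn and Il18; 25.1% of genes). Casp4, Il1b and Il1a were not called in any of these 4 comparisons. Nlrp3 then rose 3.27-fold over all cultures (log2 fold change 1.71 ± 0.15 SE), and Il18 rose 5.59-fold (2.48 ± 0.28). The lone LSD1WT library of each femur condition was assumed in this fit to vary like the other groups. Only the mandible kept an LSD1WT pair, and its libraries lay closer together than those of any other condition. The fit also took mandible and ligated femur libraries of the same mouse as independent, in both genotypes. Whether these SEs measure the spread between mice was not tested.

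**Figure D3:**
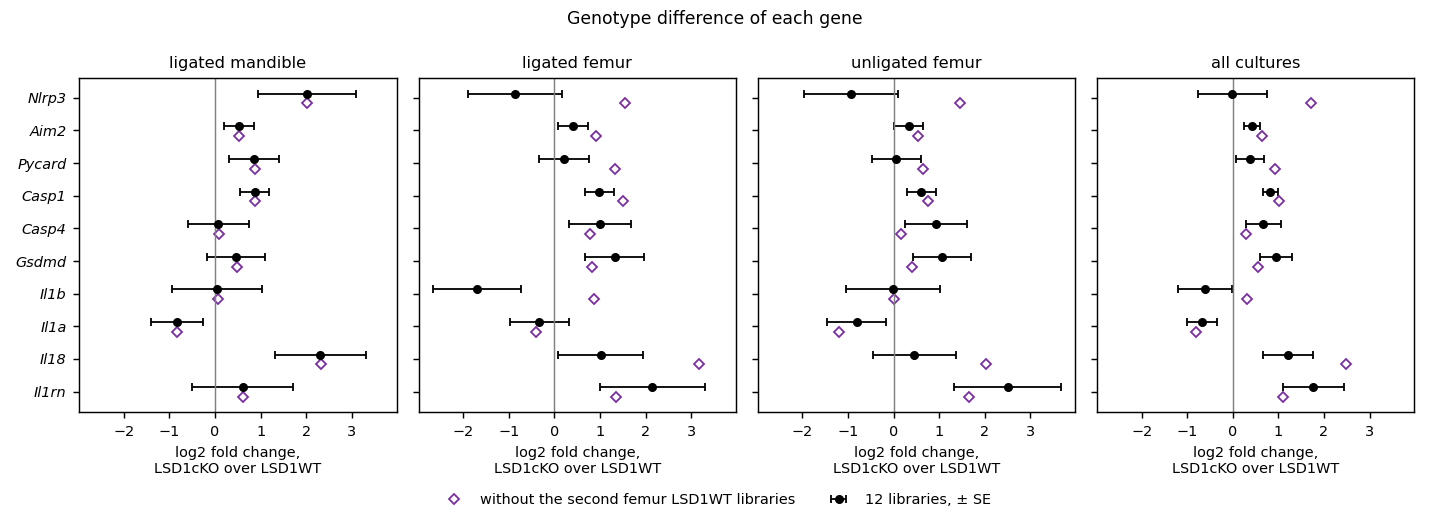
The log2 fold change of LSD1cKO over LSD1WT is plotted for the 10 genes in each culture and over all cultures, as black points with bars of 1 SE from the 12 libraries and as open diamonds from the fit without the second femur LSD1WT libraries. The mandible values hardly move, whereas Nlrp3 in the femur goes from -0.86 and -0.93 to 1.54 and 1.45, and the values of Gsdmd and Il1rn over all cultures shrink from 0.95 to 0.55 and from 1.76 to 1.11.

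The 2 mandible LSD1WT libraries lay closer to each other than any other pair. At the median gene, their variance was 1.54 times that of counting noise, against 4.89 to 88.0 times in the other 5 conditions. A fit of the 4 mandible libraries alone called 7 of the 10 genes (all but Casp4, Il1b and Il1a), at a background of 34.1% of all genes. The genotype effect was also tested for a difference between cultures. By edgeR the difference between mandible and femur of ligated mice was called for 0 of the 10 genes (0% of all genes), with 0 at an unadjusted p under 0.05 (0.966% of all genes), and so was that between ligated and unligated femur (0% of all genes, and again 0, against 0.344%). DESeq2 and voom called 0 of the 10 in both tests. For Nlrp3 the difference between mandible and femur was 2.87 ± 1.49 (SE, log2; unadjusted p = 0.0877).

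**Figure D4:**
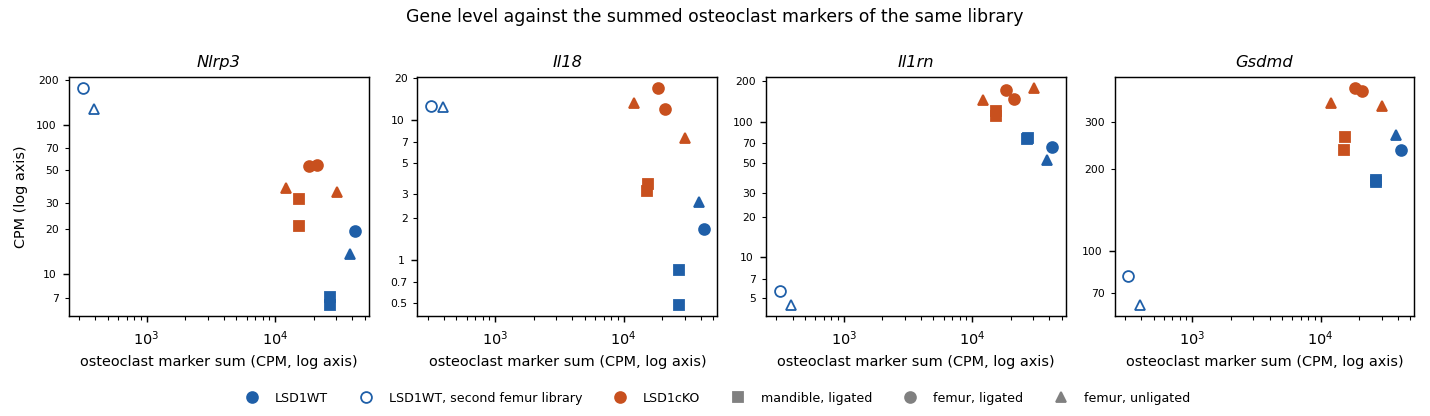
The CPM of Nlrp3, Il18, Il1rn and Gsdmd is plotted against the summed CPM of 12 osteoclast markers of the same library (both log axes), with squares for mandible, circles for ligated and triangles for unligated femur, LSD1WT in blue, LSD1cKO in orange and the second femur LSD1WT libraries open. These 2 libraries, at 318 and 390 CPM of osteoclast markers, lie at the top for Nlrp3, within the LSD1cKO range for Il18 and at the bottom for Il1rn and Gsdmd.

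Osteoclast markers summed to 26913 and 27035 CPM in LSD1WT mandible and to 15256 and 15393 CPM in LSD1cKO mandible, so that they moved with the genotype in the culture where 8 of the genes were apart. In the femur, the first LSD1WT libraries were at 42047 and 38466 CPM and the 4 LSD1cKO libraries at 12142 to 30114 CPM. The 6 monocyte markers summed to 69.7 to 1115 CPM in LSD1WT and 80.3 to 346 CPM in LSD1cKO. The 12 neutrophil markers summed to 129 to 418 CPM and 155 to 346 CPM. Neutrophils are rich in Il1b and Il1rn. The highest neutrophil and monocyte sums were both in the second ligated femur LSD1WT library, the one with 16.5 CPM of Il1b, whereas its 5.64 CPM of Il1rn was the second lowest of the 12. The part of these cell states in the results was not tested.

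Around the 10 genes, a list of 51 others of the pathway was read, of which 39 were tested, 2 symbols (Pydc3 and Pydc4) were not matched and 10 were too low, with at most 10 counts in any library. Over all cultures edgeR called 3 of them, all higher in LSD1cKO, against 3.53% of all genes, and it called 0 in any single culture. At an unadjusted p under 0.05 there were 5 in the mandible (4.82% of all genes), and in the femur 4 with ligature (6.88%) and 3 without (4.95%). DESeq2 called 6 over all cultures (8.09% of all genes), and 3, 1 and 1 in these cultures, while voom called 4 and then 0 in each. Without the second femur LSD1WT libraries edgeR called 19 over all cultures, 18 of them higher in LSD1cKO (25.1% of all genes), and 11, 13 and 5 in the single cultures (5.93%, 9.8% and 2.84%). The 4 mandible libraries fitted alone gave 21 (34.1% of all genes). The median log2 fold change of the 39 over all cultures was 0.01, against 0.55 for the 10 genes. Both lists were chosen with earlier results of these data known, so this is not an independent comparison.

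The 3 genes encode proteins that restrain the pathway or receive interleukin-18. Sigirr, an inhibitory receptor of the interleukin-1 receptor family, rose with a log2 fold change of 1.36 ± 0.14 (SE; edgeR adjusted p = 0.000997). It was at 2.31 to 5.18 CPM in the 6 LSD1WT libraries and at 7.42 to 11.7 CPM in the 6 LSD1cKO libraries, with no overlap and little effect of the second femur LSD1WT libraries, at 5.18 and 4.85 CPM. Serpinb1a, a serpin that restrains neutrophil proteases and caspase activation, rose by 1.73 ± 0.28 (adjusted p = 0.00840), from 7.79 and 6.02 CPM to 34.8 and 33.8 CPM in the mandible, and its call was lost only with mandible LSD1WT replicate 3 taken as femur, among the alternatives run. Il18rap, the accessory chain of the interleukin-18 receptor, rose by 1.67 ± 0.38 (adjusted p = 0.0404), from 2.00 and 1.47 CPM to 9.89 and 11.3 CPM in the mandible. Without any 1 of 9 of the 12 libraries its call was lost, with adjusted p-values of up to 0.127, and it was kept without ligated or unligated femur LSD1WT replicate 2 or unligated femur LSD1cKO replicate 1. Il18r1, which encodes the binding chain of the same receptor, had at most 6 counts in any library.

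Of the 10 tested sensors and partners, 7 were higher and 3 lower over all cultures, and edgeR called 0, with 1 at an unadjusted p under 0.05 (16.1% of all genes). Mefv, which encodes the sensor pyrin, had the largest log2 fold change of the list, at 2.53 ± 0.69 (SE; edgeR adjusted p = 0.0808). It was at 8.12 and 8.70 CPM in LSD1WT mandible and at 35.1 and 35.5 CPM in LSD1cKO mandible, and the second femur LSD1WT libraries were again extreme, at 1.33 and 0.21 CPM. Without them the log2 fold change was 1.99 (adjusted p = 4.2e-06), and with all 12 libraries Mefv was called by DESeq2 (adjusted p = 0.00273), by voom (adjusted p = 0.0432) and by edgeR with no filter beyond 1 count (adjusted p = 0.0137). EdgeR called 6 of these 10 without the second femur LSD1WT libraries, all higher in LSD1cKO, against 25.1% of all genes. Of the 9 signalling genes from Myd88 to Tab2, 7 were lower and 2 higher, and edgeR called 0, with 1 at an unadjusted p under 0.05, as DESeq2 and voom also called 0. Without the second femur LSD1WT libraries edgeR called 3 of these 9, of which 2 were higher, against the same 25.1% of all genes. With all 12 libraries, the lowest log2 fold change of the list was that of Il1rl1, the interleukin-33 receptor, at -0.63 ± 0.80 (edgeR adjusted p = 0.777). Next was Panx1, a channel that releases ATP, at -0.53 ± 0.20 (adjusted p = 0.203). Il1rl1 changed direction without the second femur LSD1WT libraries and was then higher in LSD1cKO.

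Mandible and femur cultures of ligated mice were compared within each genotype, and since the ligated teeth were in the other jaw, skeletal site and distance from the ligature cannot be told apart. In ligated mice of both genotypes, Nlrp3, Pycard, Casp1, Il1b and Il18 were lower in mandible than in femur cultures without overlap, as were 21.8% of all genes, and Il1a was higher. The log2 fold change of mandible over femur was -3.89 ± 1.16 (SE) for Nlrp3, -3.42 ± 1.04 for Il18, -3.31 ± 1.04 for Il1b and -1.20 ± 0.32 for Casp1 in LSD1WT. In LSD1cKO it was -1.01 ± 1.04 for Nlrp3, -2.13 ± 0.95 for Il18, -1.57 ± 0.98 for Il1b and -1.32 ± 0.32 for Casp1. EdgeR called 0 of the 10 genes in either genotype (0% and 0% of all genes), with 4 and 1 at an unadjusted p under 0.05, all lower, against 14.7% and 6.81% of all genes that were lower at that p. DESeq2 called 4 in LSD1WT (7.71% of all genes) and 1 in LSD1cKO (5.25%), and voom called 0 in both. With the mouse as a block, since 1 LSD1WT and 2 LSD1cKO mice gave both libraries, edgeR called 2 in LSD1WT (Nlrp3 and Casp1; 7.73% of all genes) and 8 in LSD1cKO (37.2% of all genes). In that fit Nlrp3 was at -1.43 in LSD1WT, a value that rests on 1 mouse. In LSD1cKO, Casp1 fell by 1.35 (edgeR adjusted p = 6.7e-08) and Il18 fell by 2.14 (adjusted p = 3.7e-09) on the log2 scale. The residual spread of that fit came only from the 2 LSD1cKO mice, so its p-values say little of the spread between mice. The LSD1WT values of the fit without this block rest on ligated femur LSD1WT libraries that differ widely. Without replicate 2 no gene of the 10 was called in LSD1WT, and without replicate 1 there were 5 (Nlrp3, Pycard, Casp1, Il1b and Il18), against 24.3% of all genes.

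Femur cultures of ligated and unligated mice compare marrow at a distance from the ligature. Il1b was the only 1 of the 10 genes that was higher without overlap in ligated than in unligated femur in both genotypes, as were 1.21% of all genes. It went from 0.53 and 0.54 CPM to 1.62 and 16.5 CPM in LSD1WT and from 0.18 and 0.88 CPM to 2.33 and 3.24 CPM in LSD1cKO. The log2 fold change was 4.06 ± 1.08 (SE; unadjusted p = 0.00502) in LSD1WT and 2.39 ± 1.02 (unadjusted p = 0.0460) in LSD1cKO, and the edgeR adjusted p was 1 in both. In all, 0 of the 10 genes were called in LSD1WT (0% of all genes) and 0 in LSD1cKO (0%), with 1 in each at an unadjusted p under 0.05 (0.765% and 0.959% of all genes), and DESeq2 and voom also called 0. Without the second femur LSD1WT libraries the LSD1WT value was 1.57 (adjusted p = 1). The ligated and unligated femur libraries came from different mice.

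The genes whose levels followed those of 3 members most closely were found by the root mean square difference of centred log2 CPM over the 12 libraries, among genes with a mean of at least 1 CPM. For Nlrp3 they were Ctsc (0.25), Eps8 (0.26) and Inpp1 (0.28), and for Il1rn they were Adora2a (0.39), Bcl2a1a (0.41) and Adamts13 (0.43). For Il1b they were Kmo (0.87), Nr4a1 (0.88) and Cxcl2 (0.89), so that no gene followed Il1b as closely as others followed Nlrp3 or Il1rn. Outside the second ligated femur LSD1WT library, Il1b had only 5 to 74 counts, against at least 169 for Nlrp3 and 107 for Il1rn. The part of counting noise in its larger distances was not tested. These distances share the same 12 libraries. The second femur LSD1WT libraries were the highest for Nlrp3 and the lowest for Il1rn, and the LSD1WT mandible libraries were the lowest for Nlrp3.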

How the data were processed

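PolyA RNA of 12 preosteoclast libraries was sequenced, and the authors deposited raw read counts per Ensembl gene, whole numbers with no normalization. The submitters' processing notes name HISAT2 2.1.0, FastQC, featureCounts, edgeR and GRCm39. Strand setting and annotation release are not given in the sources used here. Counts were analysed in R 4.3.3 with edgeR 4.0.16 (filterByExpr, TMM, quasi-likelihood test, 6 condition coefficients, or culture and genotype for all cultures) over 15425 genes, with Benjamini-Hochberg adjustment and a threshold of 0.05. The SE is the log2 fold change over the root of F. Totals ranged from 21375805 to 32526751, and a count of 0 was taken to allow 3. Both fits were tested on simulated counts.

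The 10 genes and all lists were chosen with earlier results of these data known. Named are all 10 genes, pathway genes past the threshold or otherwise the 2 highest and 2 lowest over all cultures, Kdm1a, and the 3 genes nearest to Nlrp3, Il1b and Il1rn. Il18r1 was named after its values were seen. Alternatives were DESeq2 1.42.0, RLE and upper-quartile scaling, 2 other filters, compared conditions alone, a block, limma 3.58.1 voom with the mouse random, relabelling or summing mandible LSD1WT libraries, and libraries left out. The alternatives to the count of separated genes were chosen after seeing the data. Mandible and femur libraries of the same mouse were paired by the labels, and their deviations correlated at 0.026 in LSD1cKO. All 10 exon lengths came from GENCODE vM21 by Ensembl identifier, and promoters from RefSeq for GRCm38.p6. These differ from the GRCm39 of the notes and were used only for lengths, overlaps and promoter sequence.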

Additional observations from a re-analysis of the deposited data

Results flagged for a closer look

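In each genotype, the 6 libraries were checked for a value whose gap to its neighbour took an unusual share of the whole range on the log2 scale. Such a check flags about 1 in 20 groups by chance, and 20 groups were examined. Casp4 in the second unligated femur LSD1WT library was low, with a gap of 0.643 of the range, and Il1b in the second ligated femur LSD1WT library was high, with a gap of 0.691 of the range. Both libraries are those with the low osteoclast marker sums, whose part in these values was not tested.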

How the results depend on the processing

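Every alternative was run on the 10 comparisons except compared conditions alone over all cultures, and Il1a dropped out at a mean of 10 counts. Of the 10 genes, the number called in the mandible was 7 with compared conditions alone and 2 without the second femur LSD1WT libraries, and without these libraries it was 5 and 2 for the femur with and without ligature. Over all cultures it was 2 by DESeq2 (Casp1 and Il1rn), 0 by voom, 0 with mandible LSD1WT replicate 3 as femur, 0 with the mandible LSD1WT libraries summed and 7 without the second femur LSD1WT libraries, and it ranged from 0 to 1 with each library left out. For mandible against femur in LSD1WT it was 4 by DESeq2, 3 with no filter beyond 1 count, 2 with the mouse block, 1 without the second femur LSD1WT libraries and 0 to 5 with each library left out, and in LSD1cKO it was 1, 9 with compared conditions alone, 8 with the mouse block, 5 and 0 to 1. The count of genes apart in all 3 cultures was 7 without the second femur LSD1WT libraries and stayed at 3 under the other 4 alternatives. The share of all genes called moved as well. It was 34.1% for the mandible with compared conditions alone and 37.2% for mandible against femur in LSD1cKO with the mouse block. Counts with no share here or above, such as the 9 in LSD1cKO, cannot be read as particular to these genes. The cause of these moves was not tested. With the mouse block, the LSD1WT comparison of sites rests on 1 mouse.

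Nlrp3 over all cultures, at -0.01, changed sign to 0.016 by DESeq2, 0.0078 with RLE and 0.056 with upper-quartile scaling, 0.047 with no filter, 0.034 at a mean of 10 counts, 0.13 with the replicate block, 0.27 by voom and 1.71 without the second femur LSD1WT libraries, which also turned it to 1.54 and 1.45 for the femur with and without ligature. These libraries turned Il1b to 0.86 and 0.0027 for the femur with and without ligature and to 0.31 over all cultures. Il1b in the unligated femur, at -0.02, became 0.061 with upper-quartile scaling, 0.046 with no filter and 0.016 at a mean of 10 counts, and in the mandible it was -0.30 with the replicate block. With each library left out, the log2 fold change ran from -0.28 to 0.33 for Il1b in the ligated mandible, and -0.31 to 1.33 for Pycard, -1.64 to 1.54 for Nlrp3, -2.49 to 0.86 for Il1b in the ligated femur, and -1.52 to 0.71 for Il1b, -0.47 to 0.66 for Pycard, -0.23 to 2.03 for Il18, -1.74 to 1.46 for Nlrp3, -0.11 to 0.70 for Aim2 in the unligated femur, and -0.37 to 0.83 for Nlrp3, -0.96 to 0.27 for Il1b over all cultures. The replicate numbers pair other mice across genotypes, where same-numbered libraries share only a number, and the block changed no other call among the genes named.

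All genes called over all cultures numbered 544, and 306 to 3869 under the alternatives or 279 to 703 with each library left out. In the mandible they numbered 0, and up to 5261 with compared conditions alone. Il1a and Il1b in the unligated femur rest on at most 24 counts.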
